A study of Mus musculus with 9 samples.

Results

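The genes described here are Il10, which encodes the anti-inflammatory cytokine interleukin-10, the 4 transcription factor genes Prdm1, Maf, Nfil3 and Bhlhe40, which are known to control Il10 in lymphocytes, and Il10ra, the ligand-binding chain of the IL-10 receptor. They were chosen by name, with their response to IL-33 in these libraries already known, and all 6 were found among the 20732 genes of the count table. RNA came from group 2 innate lymphoid cells (ILC2s), tissue lymphocytes without antigen receptors that make type 2 cytokines. They had been isolated from pancreata of C57BL6/J animals as live cells positive for CD45 and KLRG1 and negative for CD3, B220 and lineage markers. Control mice received PBS and are titled naïve in the labels (4 libraries), and the other group received 200 ng of IL-33, a cytokine that activates ILC2s through its receptor ST2, on days 0 and 1 (5 libraries), with harvest on day 5. The series text counts 5 animals with PBS and 4 with IL-33, and the sample labels, which differ, were followed. Whether every library is from its own animal is not stated, so the errors and p-values describe the spread between these libraries, which may be technical.

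IL-10 signals through a receptor of the chains IL-10RA and IL-10RB to the kinases JAK1 and TYK2 and the transcription factor STAT3, and restrains inflammatory gene expression. PRDM1 (Blimp-1) and MAF are known to promote Il10 in T cells, NFIL3 (E4BP4) promotes it in helper T cells and is needed for innate lymphoid cells to develop, and BHLHE40 is known to repress it in T cells. Activated ILC2s that make IL-10 have been described in other tissues.

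Of the 6 genes, 2 have a promoter in the RefSeq table used here (GRCm38.p6), Prdm1 and Nfil3, and the 250 bases before each start site are shown because the messages of these regulators overlapped between the groups while Il10 did not. Both genes lie on the minus strand. The Prdm1 window (chr10:44458749-44458998) lies inside the span of the gene in GENCODE, and the Nfil3 window (chr13:52981040-52981289) overlaps the span of its gene in part. Capitals mark a half-site of the cyclic AMP response element, TGACG, here on the opposite strand as CGTCA. In Prdm1 they also mark TGAATCA, a match to the loose AP-1 pattern TGANTCA, in which N is any base.
Prdm1: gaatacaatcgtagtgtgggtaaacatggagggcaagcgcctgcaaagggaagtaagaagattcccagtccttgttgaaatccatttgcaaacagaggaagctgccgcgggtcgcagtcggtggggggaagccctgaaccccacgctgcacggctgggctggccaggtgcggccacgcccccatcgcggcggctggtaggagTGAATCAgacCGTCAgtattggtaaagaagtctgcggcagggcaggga
Nfil3: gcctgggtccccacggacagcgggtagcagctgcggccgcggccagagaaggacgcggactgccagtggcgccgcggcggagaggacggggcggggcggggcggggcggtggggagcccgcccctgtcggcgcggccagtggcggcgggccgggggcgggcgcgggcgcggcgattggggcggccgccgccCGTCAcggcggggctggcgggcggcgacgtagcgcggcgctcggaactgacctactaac
The AP-1 letters of Prdm1 ran from -48 to -42 and the half-site from -38 to -34, counted from the start site. The half-site of Nfil3 ran from -59 to -55. Over 32851 promoters of the same kind, searched on both strands through 50 bases past the start site, the loose AP-1 pattern was present in 6.75% and the half-site in 17.8%. The Nfil3 promoter also held 9 matches to the GC box GGGCGG, some sharing a base with the next, a motif present in 32.7% of promoters. Its GC content was 81.6%, against 59.2% for Prdm1 and a median of 52.4%. In neither window was there an E-box (CACGTG, the motif bound by BHLHE40, in 6.02% of promoters), a D-box (TTACGTAA or TTATGTAA, bound by NFIL3, in 0.931%), a MAF half-site (TGCTGA, in 16.1%) or the PRDM1 core GAAAG (in 51.5%). These are matches of letters and carry no measurement of binding.

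Il10 message was close to absent in the PBS libraries and present in every IL-33 library. The count was 0, 1, 0 and 0 in PBS replicates 1 to 4, and 44, 142, 99, 315 and 238 in IL-33 replicates 1 to 5. Scaled to library size by the trimmed mean of M values (TMM), this was 0.0603 CPM (counts scaled to a common library size) in PBS replicate 2, and 2.43, 8.43, 4.60, 15.0 and 10.6 CPM in the IL-33 libraries. The groups did not overlap, and the lowest IL-33 library stood far above the floor of 3 counts, which is 0.133 to 0.286 CPM in these libraries. The IL-33 mean was 8.21 ± 4.95 CPM (SD, n = 5), and the summed counts of 838 against 1 gave a ratio of 557, with an exact binomial 95% interval of 99.8 to 22041 that covers counting error only. Within the IL-33 group the highest library exceeded the lowest 6.17-fold. The Poisson 95% interval of the lowest count was 32.0 to 59.1 and that of the highest 281 to 352, for the reads counted. Il10 occupies chr1:131019845-131024974 on the plus strand (GRCm38, GENCODE M21), and its level per kilobase of exon was at percentile 0.784 of tested genes in PBS and at percentile 58.1 in IL-33. As these are bulk samples, a change in the share of cells that carry a message and a change in the message per cell cannot be told apart.

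**Figure D1:**
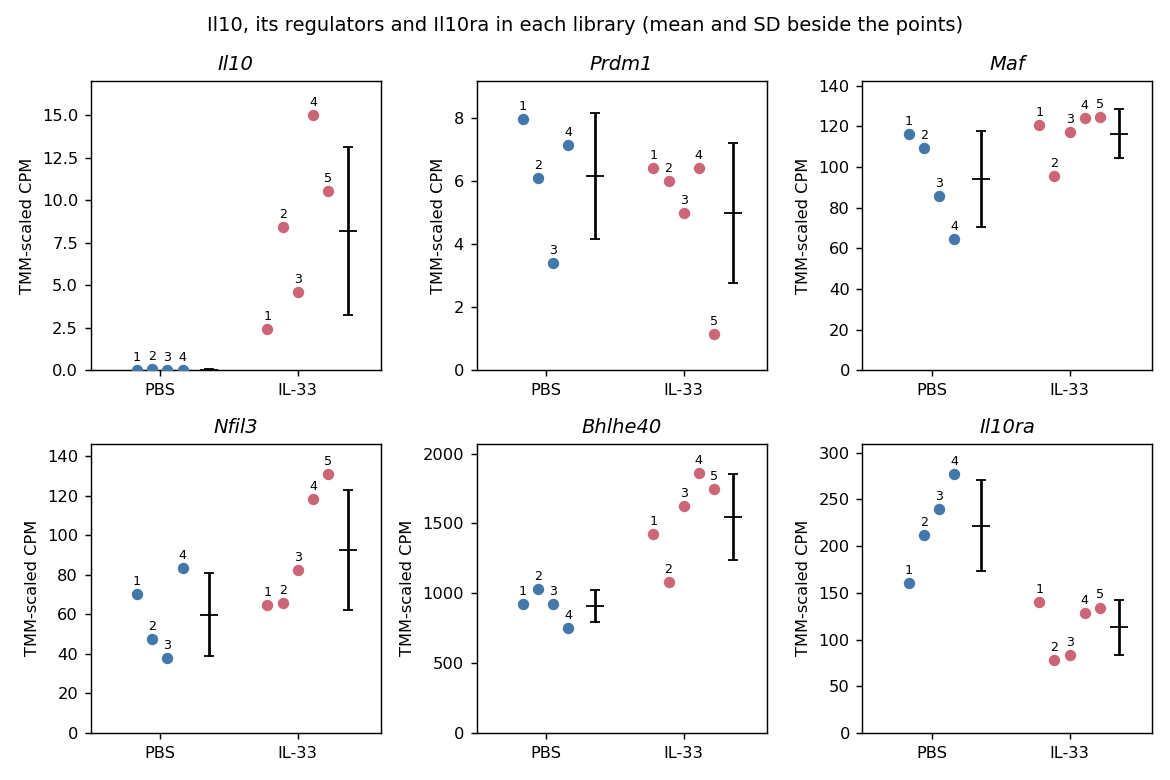
TMM-scaled CPM of the 6 genes (vertical axes, linear from 0) in each PBS library (blue) and each IL-33 library (red); numbers are replicate numbers, and the bar beside each group gives the mean and SD. Il10, Bhlhe40 and Il10ra separate the groups, whereas Prdm1, Maf and Nfil3 overlap between them, with IL-33 replicate 5 at 1.15 CPM for Prdm1.

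Across all genes tested, the edgeR test called 25.2% changed at an adjusted p under 0.05 (13.7% higher with IL-33 and 11.6% lower), and in 26.1% the groups did not overlap. All 6 genes passed the filter on low counts. Il10, Bhlhe40 and Il10ra were among the 3633 called genes and were those whose groups did not overlap, but as the genes were chosen for this contrast, nothing is read from that count and no p is given for them. With library size alone as the scaling, Bhlhe40 and Il10ra were not called.

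Prdm1 encodes a zinc-finger repressor that drives effector differentiation. Its level was 7.97, 6.09, 3.39 and 7.16 CPM in PBS replicates 1 to 4, and 6.41, 6.0, 4.98, 6.43 and 1.15 CPM in IL-33 replicates 1 to 5. The groups overlapped, with means of 6.15 ± 1.99 (SD, n = 4) and 4.99 ± 2.23 CPM (SD, n = 5) and a fitted log2 change of -0.30 ± 0.50 (SE). IL-33 replicate 5 stood apart below all others, at 26 counts, and without it the log2 change was -0.05. That library had the second-highest Il10, so high Il10 and low Prdm1 message occurred in the same sample. The gene spans chr10:44437177-44528501 on the minus strand.

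Maf encodes a basic leucine zipper factor. It stood at 116, 109, 85.9 and 64.5 CPM in PBS replicates 1 to 4 and at 121, 95.4, 117, 124 and 125 CPM in IL-33 replicates 1 to 5. Maf was thus well expressed in the PBS libraries, where Il10 was near 0, and the groups overlapped (94.0 ± 23.6 CPM, SD, n = 4, and 116 ± 12.1 CPM, SD, n = 5). The log2 change was 0.31 ± 0.18 (SE), and 0.15 without PBS replicate 4, the library with the lowest Maf and the highest share of acinar transcripts. Maf lies at chr8:115682942-115707794 on the minus strand, where the antisense gene Gm15655 overlaps 440 of its exon bases. Whether the libraries keep strand is not given in the sources used here, so reads of overlapping genes could be shared.

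Nfil3 encodes a basic leucine zipper repressor that binds D-boxes, the elements also bound by the clock activators DBP, TEF and HLF. It measured 70.3, 47.6, 37.6 and 83.6 CPM in PBS replicates 1 to 4 and 64.8, 65.9, 82.2, 119 and 131 CPM in IL-33 replicates 1 to 5. The 2 highest values were IL-33 replicates 5 and 4, the libraries with the most Il10, while the other 3 IL-33 libraries lay within the PBS range. Means were 59.8 ± 20.9 CPM (SD, n = 4) and 92.4 ± 30.5 CPM (SD, n = 5), with a log2 change of 0.63 ± 0.30 (SE). Its span is chr13:52967209-52981073 on the minus strand.

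Bhlhe40 encodes a basic helix-loop-helix repressor that binds E-boxes and was the most abundant of the 6 messages in both groups. It measured 922, 1032, 921 and 751 CPM in PBS replicates 1 to 4 and 1424, 1077, 1624, 1861 and 1749 CPM in IL-33 replicates 1 to 5. Every IL-33 library lay above every PBS library, although IL-33 replicate 2 was only slightly above PBS replicate 2. The mean was 906 ± 116 CPM (SD, n = 4) with PBS and 1547 ± 309 CPM (SD, n = 5) with IL-33, a 1.71-fold difference and a log2 change of 0.77 ± 0.17 (SE). The gene (chr6:108660629-108666925, plus strand) shares 118 exon bases with the antisense gene 0610040F04Rik, which had 4 counts in IL-33 replicate 2 and 0 in the other libraries. Bhlhe40, known as a repressor of Il10, and Il10 were thus both higher in the IL-33 libraries.

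Il10ra, the receptor chain that binds IL-10, differed in the opposite direction to the cytokine. PBS replicates 1 to 4 held 160, 212, 240 and 277 CPM, and IL-33 replicates 1 to 5 held 140, 78.2, 83.7, 128 and 134 CPM. The groups did not overlap, though PBS replicate 1 and IL-33 replicate 1 were close. Means were 222 ± 49.1 CPM (SD, n = 4) and 113 ± 29.6 CPM (SD, n = 5), 1.97-fold higher with PBS, and the log2 change was -0.97 ± 0.22 (SE). PBS replicate 4, rich in acinar transcripts, had the highest value, and without it the log2 change was -0.86. Il10ra is at chr9:45253837-45269149 on the minus strand.

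Ordered by mean CPM per kilobase of exon, PBS libraries had Bhlhe40 at 193, Il10ra at 63.5, Nfil3 at 29.5, Maf at 11.4, Prdm1 at 1.10 and Il10 at 0.0115, and no neighbours in this order had overlapping ranges. With IL-33 the order was Bhlhe40 at 329, Nfil3 at 45.6, Il10ra at 32.3, Maf at 14.1, Il10 at 6.26 and Prdm1 at 0.895. Il10 thus stood above Prdm1 in every IL-33 library and below it in every PBS library, and Nfil3 and Il10ra overlapped in the IL-33 group.

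Among the IL-33 libraries the order by Il10 was replicate 4, 5, 2, 3 and 1, from highest to lowest. Nfil3, Bhlhe40 and Maf were highest in replicates 4 and 5 too. Maf, at 124 and 125 CPM there, varied little, with a coefficient of variation of 10.4% against 60.4% for Il10, and was lowest in replicate 2. Prdm1 was highest in replicate 4, at 6.43 CPM, and lowest in replicate 5, at 1.15 CPM. Il10ra was highest in replicate 1, where Il10 was lowest. With 5 libraries no relation between the genes was tested.

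**Figure D2:**
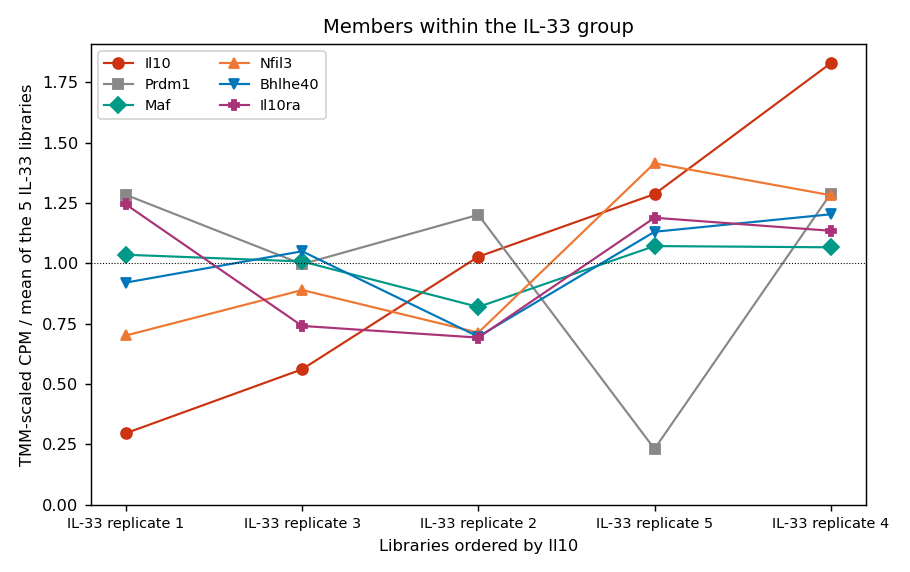
Each gene in the 5 IL-33 libraries, as TMM-scaled CPM divided by the gene's mean over those libraries (vertical axis, 1 is the mean), with the libraries ordered by Il10 from left to right; lines only join the points of 1 gene. Il10 spans a 6.17-fold range, Maf stays near its mean, and Prdm1 drops in IL-33 replicate 5.

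The libraries differed in RNA of other cells. Genes of acinar cells, which make digestive enzymes, took 36.9% of counts in PBS replicate 4, against 0.113 to 6.66% in the other PBS libraries and 0.330 to 10.6% with IL-33. Total counts lay between 14216976 and 21020023. All 12 ILC2 markers were in the table, and their summed level was 9979 to 12797 CPM with PBS and 10910 to 15868 CPM with IL-33. The most abundant with IL-33 were Gata3, the defining ILC2 transcription factor, followed by Il13 and Il5, which encode type 2 cytokines and had means of 1733 and 1675 CPM.

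Markers of other cells that are known to make IL-10 were present at differing levels, and several lists were higher in the IL-33 libraries. Of 14 macrophage and monocyte markers, 13 were in the table, and their sum of 1760 to 2448 CPM with PBS and 925 to 1922 CPM with IL-33 was nearly all Ccr2. Without Ccr2, a step chosen after the values were seen, the sum was 7.73 to 26.7 CPM with PBS and 6.46, 14.2, 19.2, 68.6 and 7.50 CPM in IL-33 replicates 1 to 5. IL-33 replicate 4 thus had both the most Il10 and the most macrophage transcripts, including Lyz2 at 16.7 CPM and C1qb at 16.3 CPM, and Cd163 was at 0 in all other libraries. Replicate 5, with the second-highest Il10 at 10.6 CPM, and replicate 1, with 2.43 CPM, both held macrophage sums below the lowest PBS value. In those libraries C1qa, C1qc, Csf1r, Mrc1 and Cd163 were at 0, whereas Lyz2 was at 1.95 CPM in replicate 5 and 3.81 CPM in replicate 1, and Cd68 at 2.31 and 1.88 CPM. Replicate 5 also held Adgre1 at 1.95, C1qb at 0.799 and Cx3cr1 at 0.488 CPM, and replicate 1 held Lyz1 at 0.773 CPM. Dendritic cell markers, 5 of 8 in the table, summed to 16.5 to 36.6 CPM with PBS and to 67.9, 90.7, 112, 140 and 64.1 CPM in IL-33 replicates 1 to 5, chiefly H2-Ab1 and Xcr1. They too were highest in replicate 4, the library with the most Il10, and the groups did not overlap. The summed level of the 5 regulatory T cell markers was 1250 to 1717 CPM with PBS and 713 to 1038 CPM with IL-33, most of it Tnfrsf18 and Il2ra. The defining gene Foxp3 was at a mean of 1.57 CPM with PBS (4.16, 0, 1.62 and 0.477 CPM in replicates 1 to 4) and 0.0820 CPM with IL-33. Ctla4, also in this list, went the other way, from a mean of 3.48 CPM with PBS to 25.9 CPM with IL-33, without overlap of the groups. The 9 of 11 B and plasma cell markers in the table summed to 430 to 577 CPM with PBS and 177 to 440 CPM with IL-33, mostly Ighm and Cd79b. Without these, a step chosen after the values were seen, the sum was 0 to 14.3 CPM with PBS and 0 to 35.2 CPM with IL-33, the highest in IL-33 replicate 3. Only 3 of 9 mast cell and basophil markers were in the table, summing to 19.2 to 45.8 CPM with PBS and 94.8 to 357 CPM with IL-33, chiefly Cpa3. The 3 of 6 eosinophil markers in the table summed to 0 to 8.87 CPM with PBS and 12.9 to 30.7 CPM with IL-33, and 11 of 13 T cell markers to 1093 to 1283 CPM and 862 to 1135 CPM. The T cell sum was chiefly Trbc1, Trbc2, Cd3g and Lck. Cd3e, Cd3d and Trac averaged 2.59, 0.432 and 1.16 CPM with PBS and 5.33, 2.83 and 2.47 CPM with IL-33, and Cd4 and Cd8a were not in the table. Erythroid markers summed to 168 to 323 CPM with PBS and to 2340, 1293, 3568, 540 and 369 CPM in IL-33 replicates 1 to 5, so the 2 libraries with the most Il10 had the fewest erythroid transcripts of that group. The part of macrophage, dendritic, B, T, mast, eosinophil, erythroid and acinar cell RNA in these results was not tested.

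The IL-10 family held no other tested cytokine gene. Il22, a relative that acts on epithelium, was at 0 in all PBS libraries and had 80 counts in IL-33 replicates 3, 4 and 5, which with the PBS libraries set at 3 counts each is at least 3.80-fold higher over the group. Il10rb, the second chain of the IL-10 receptor, fell, from 63.4 ± 12.7 CPM with PBS (SD, n = 4) to 37.9 ± 4.85 CPM with IL-33 (SD, n = 5), with a log2 change of -0.74 ± 0.16 (SE, adjusted p = 0.00997 by edgeR), and the groups did not overlap. The call was lost with library size alone as the scaling, and Gm21970 shares 569 exon bases with Il10rb on the same strand, so its reads are uncertain. Exons of Rarb, Bhlhe41, Il21, Arntl, Rassf5, Cebpb, Bach2, Irf1, Il2rg, Ikbke, Eif2d, Zfp36, Gata3, Junb, Stat3, Rora, Tef, Mafg, Mafk and Cd274 also overlap other genes, and their values carry the same doubt. Il20rb had 186 counts with PBS and 4 with IL-33, Ifnlr1 had 94 and 0, and neither passed the filter.

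Of the genes that carry or answer the IL-10 signal, leaving out Nfil3, 13 were tested, 0 rose and 3 fell, 23.1% called against 25.2% of all genes. Those that fell included Dusp1, a phosphatase that switches off MAP kinases (5072 ± 450 to 1530 ± 519 CPM, log2 change -1.73 ± 0.24, adjusted p = 0.00103 by edgeR), and Etv3, a transcriptional repressor (95.0 ± 28 to 45.3 ± 7.62 CPM), whose call was lost with library size alone. Library size alone left 1 of the 3 called. The transcription factor and a kinase of the pathway were not called: Stat3 was 252 ± 30.4 CPM with PBS (SD, n = 4) and 237 ± 39.0 CPM with IL-33 (SD, n = 5), and Jak1 had a log2 change of -0.24 ± 0.14. Not called either was Zfp36, which encodes an RNA-destabilising protein induced by IL-10, with a log2 change of -0.47 ± 0.21 (SE). Il1rn, an IL-10 response gene in myeloid cells, had 1 count with PBS and 4 with IL-33. The median log2 change of this list with Nfil3 was -0.17, against -0.05 over all genes tested.

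Of 37 tested genes for other factors that act on Il10, 3 rose and 7 fell, or 27.0% against the 25.2% of all genes. Batf, an AP-1 family factor of effector lymphocytes, rose, from 71.5 ± 9.51 CPM with PBS (SD, n = 4) to 209 ± 28.8 CPM with IL-33 (SD, n = 5), a log2 change of 1.55 ± 0.14 (SE, adjusted p = 0.00012 by edgeR). Its IL-33 values of 169, 224, 202, 204 and 247 CPM all lay above the highest PBS value of 85.4 CPM. Irf4, the interferon regulatory factor that binds DNA together with BATF, was 3.71, 2.65, 0 and 7.35 CPM in PBS replicates 1 to 4 and 72.2, 47.0, 37.7, 85.0 and 67.3 CPM in IL-33 replicates 1 to 5 (log2 change 4.21 ± 0.87). It was highest in replicate 4, the library with the most Il10, and was singled out after its values were seen. With 0 counts in PBS replicate 3, Irf4 needed the IL-33 libraries to pass the filter, so no p is given for it. It is among the 3 counted as rising. Rbpj, the DNA-binding partner of Notch, rose from 116 ± 27.9 to 302 ± 30.6 CPM. Fos, an immediate early AP-1 gene, fell by 1.44 ± 0.14 on the log2 scale (adjusted p = 0.000175 by edgeR), and Cebpb, a basic leucine zipper gene, fell by 2.49 ± 0.43, although 312 of its exon bases overlap Tmem189. Bach2, Irf1, Sp1, Ikzf1 and Egr2 also fell. Gata3, Junb and Id2, the most abundant genes not called, had log2 changes of -0.16, -0.36 and 0.10, each smaller than its SE. Zbtb32 had 107 counts with IL-33 and 0 with PBS. The median log2 change of the list was -0.35, and with library size alone as the scaling 3 of its genes were higher and 3 lower.

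**Figure D3:**
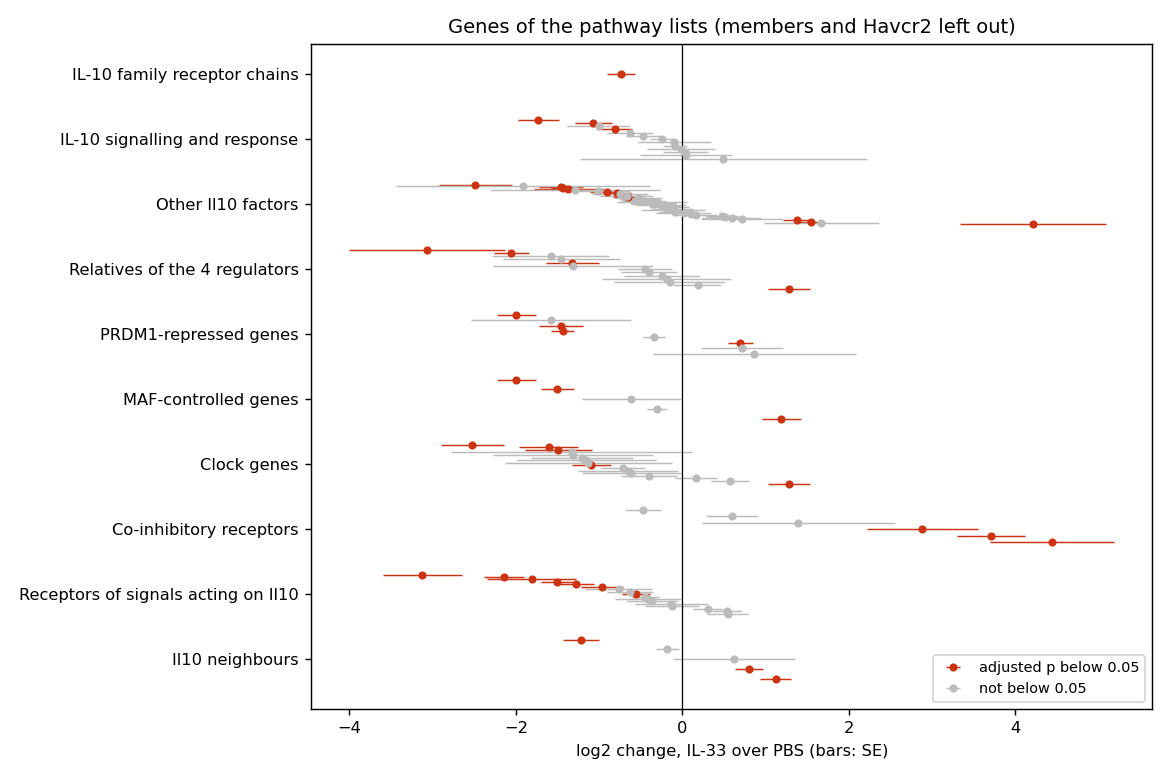
Fitted log2 change, IL-33 over PBS, of each tested gene of 10 pathway lists (horizontal axis, bars are SE), in red where the edgeR adjusted p was below 0.05; the 6 chosen genes and Havcr2, which was at 0 in all PBS libraries, are left out. The co-inhibitory receptors called lie to the right, up to Tigit at 4.44, and the called receptors of signals lie to the left, down to Il6st at -3.13.

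Among 13 tested relatives of the 4 regulators there were 1 rise and 3 falls, 30.8% called against 25.2% of all genes, and the median log2 change was -0.45. Hlf, a D-box activator related to NFIL3, rose, from 51.7 ± 14.3 CPM with PBS (SD, n = 4) to 126 ± 33.8 CPM with IL-33 (SD, n = 5), with a log2 change of 1.28 ± 0.25 (SE, adjusted p = 0.00526 by edgeR). Maff, a small MAF protein gene without an activation domain, fell by 2.05 ± 0.21 on the log2 scale (adjusted p = 0.000212 by edgeR). Prdm2, a histone methyltransferase gene, fell by 1.32 ± 0.32, a call lost with library size alone. Prdm9, known for its role in meiosis, fell from 9.38 ± 9.11 to 1.12 ± 0.778 CPM, a call lost under 9 of 16 alternatives, among them leaving out PBS replicate 1, PBS replicate 2, or IL-33 replicate 1, 2, 3 or 5. Mafg, Mafk and Tef had log2 changes of 0.18, -0.45 and -0.40 and were not called. Bhlhe41, the closest relative of Bhlhe40, had 41 counts with PBS and 39 with IL-33.

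Among 8 tested genes known to be repressed by PRDM1 there were 1 rise and 3 falls, 50.0% called against 25.2% of all genes, and the median log2 change was -0.89. Il2, a T cell growth factor gene, fell from 43.1 ± 7.16 to 10.8 ± 2.81 CPM (log2 change -2.0 ± 0.23, adjusted p = 0.000407 by edgeR), and Bach2, a repressor of effector programmes, fell from 39.2 ± 8.77 to 14.2 ± 4.63 CPM, as did Fos (above). Tcf7, which encodes TCF-1, rose from 58.3 ± 6.83 to 94.4 ± 16.9 CPM (log2 change 0.70 ± 0.15, adjusted p = 0.0097 by edgeR). Myc, Bcl6 and Id3 had log2 changes of -0.34, 0.72 and -1.58 and were not called. Of 5 tested genes known to be controlled by MAF in T cells, Il4 rose from 14.7 ± 3.98 to 33.4 ± 6.54 CPM (log2 change 1.19 ± 0.23, adjusted p = 0.00521 by edgeR), Icos, a costimulatory receptor gene, and Il2 fell, and Il9r was not called, with a log2 change of -0.31 (60.0% of the list called, list median -0.61). Il21 had 0 counts with PBS and 10 with IL-33.

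The circadian clock list holds Nfil3 and Bhlhe40, and of its other 16 tested genes 1 rose, Hlf, and 4 fell, 31.2% called against 25.2% of all genes. Per3, a period gene, was at 34.4 to 55.2 CPM with PBS and 4.48 to 15.0 CPM with IL-33, a log2 change of -2.52 ± 0.38 (SE, adjusted p = 0.00151 by edgeR). Per1 fell from 91.5 ± 20.3 to 42.9 ± 12.2 CPM (adjusted p = 0.00873 by edgeR), a call lost with library size alone. Nr1d2, which encodes the repressor REV-ERB beta, and Clock fell by 1.61 ± 0.35 and 1.49 ± 0.40 on the log2 scale. Rora and Arntl, which encode activators of the clock, were not called, with log2 changes of 0.16 and -0.71. The harvest hour is not given in the sources used here. In the promoter table, 16 clock genes had 21 promoters, of which 6 held the E-box CACGTG (Bhlhe41, Ciart, Cry1, Per1 and Tef) and 1 the D-box (Per3). With library size alone as the scaling, 3 of the 18 tested clock genes were called, against 6, and the median log2 change of the 18 was -0.90.

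Genes that dampen lymphocyte responses and are known to be expressed together with Il10 under PRDM1 and MAF were higher or not called where tested. Most of them encode receptors, and Cd274 encodes a ligand. Of 7 tested, 4 rose, 57.1% against the 13.7% of all genes that rose, and 0 fell, with a median log2 change of 2.88. Pdcd1, which encodes PD-1, was 11.2, 15.2, 26.4 and 32.3 CPM in PBS replicates 1 to 4 and 239, 254, 144, 385 and 358 CPM in IL-33 replicates 1 to 5, a log2 change of 3.70 ± 0.41 (SE, adjusted p = 0.000309 by edgeR). Tigit, an inhibitory receptor for nectins, rose from 1.28 ± 1.23 to 28.8 ± 3.94 CPM (log2 change 4.44 ± 0.75). Ctla4, which competes with CD28 for its ligands, rose from 3.48 ± 3.04 to 25.9 ± 9.94 CPM (log2 change 2.88 ± 0.67, adjusted p = 0.0121 by edgeR). Havcr2, which encodes TIM-3, had 0 counts in every PBS library and 1.82, 1.66, 2.33, 13.6 and 9.63 CPM in IL-33 replicates 1 to 5. With the PBS libraries set at 3 counts each, this is at least 30.1-fold higher. Havcr2 passed the filter through the IL-33 libraries alone and could be called only as higher, so no p is given for it. Tigit had 48, 1, 44 and 4 counts in PBS replicates 1 to 4. It also needed the IL-33 libraries to pass, so its p is left out too. Havcr2 and Tigit are among the 4 counted, so part of that count follows from the filter. The list was chosen with earlier results of these data known. Pdcd1, Ctla4 and Havcr2 were each highest in IL-33 replicates 4 and 5, the libraries with the most Il10. Tigit was instead highest in replicate 1, at 34.4 CPM, the library with the least Il10. The ILC2 markers Il13 and Areg were also highest in replicates 4 and 5, so this order was not particular to these receptors. Cd200r1, Cd274 and Btla were not called, with log2 changes of -0.47, 0.60 and 1.39, and Lag3 and Procr did not pass the filter, with 24 and 109 counts with PBS and 62 and 0 with IL-33.

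**Figure D4:**
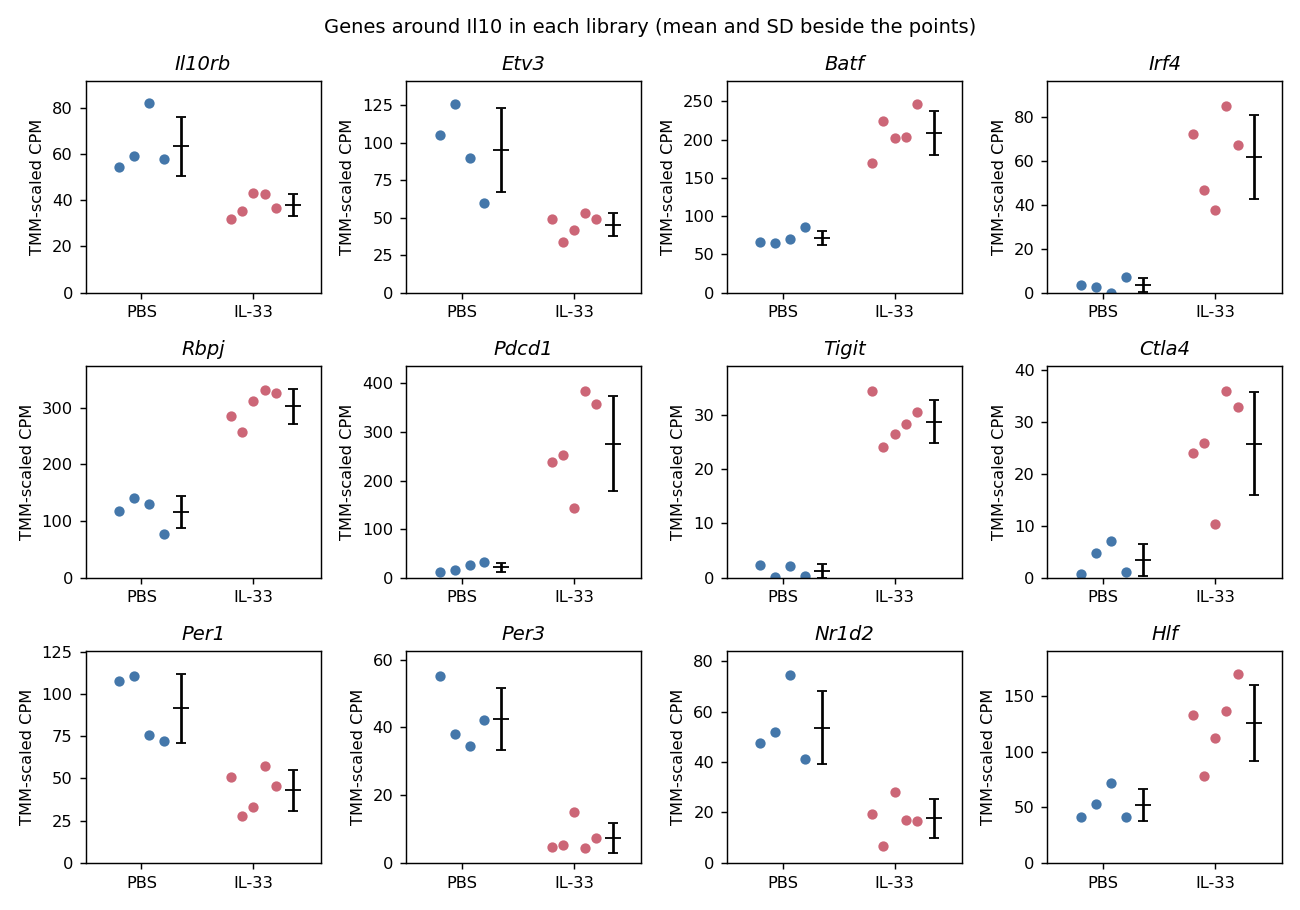
TMM-scaled CPM (vertical axes, linear from 0) of 12 genes of the receptor, signalling, Il10 factor, co-inhibitory and clock lists in each PBS library (blue) and IL-33 library (red), in order of replicate number, with the mean and SD beside each group; the 12 were chosen after their values were seen. The groups do not overlap in any panel, with Batf, Irf4, Rbpj, Pdcd1, Tigit, Ctla4 and Hlf higher and Il10rb, Etv3, Per1, Per3 and Nr1d2 lower with IL-33.

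Receptors of signals known to act on Il10 in ILC2s were lower or not called. Of 17 tested, 0 rose and 7 fell, 41.2% against the 11.6% of all genes that fell, and 4 were called without PBS replicate 2, without IL-33 replicate 2 or with library size alone. Under limma voom, under DESeq2, without PBS replicate 3 or without IL-33 replicate 3, 1 gene of the list rose. Nmur1 was not called, with a log2 change of 0.53 ± 0.18 (SE). The median log2 change of the list was -0.55. Il6st, the signal-transducing chain shared by IL-6 family and IL-27 receptors, fell from 59.2 ± 7.51 to 6.77 ± 4.61 CPM (log2 change -3.13 ± 0.47, adjusted p = 0.00155 by edgeR). Icos fell by 1.5 ± 0.20 and Il7r, the IL-7 receptor chain, by 1.28 ± 0.22 on the log2 scale, and Il2ra, Il2rg and Rarg fell too. Il1rl1, which encodes the IL-33 receptor ST2, was 1181 ± 199 CPM with PBS (SD, n = 4) and 865 ± 157 CPM with IL-33 (SD, n = 5) and was not called (adjusted p = 0.0723 by edgeR), nor were Tnfrsf25 and Il27ra. Il1rl1 was called, however, under DESeq2, limma voom and the stricter filter, and without PBS replicate 4 or IL-33 replicate 4. Rarb had 6 counts with PBS and 95 with IL-33.

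Il10 has the genes Il19, Il20, Il24, Mapkapk2, Dyrk3, Eif2d, Rassf5 and Ikbke near it on chromosome 1. Of 5 tested neighbours, Mapkapk2, a kinase gene next to Il10, rose from 60.0 ± 8.96 to 104 ± 18.2 CPM (log2 change 0.80 ± 0.17, adjusted p = 0.00732 by edgeR), and Eif2d, a translation initiation factor gene, rose with a log2 change of 1.12 ± 0.19 (adjusted p = 0.00267 by edgeR). Ikbke, an inflammatory kinase gene, fell by 1.22 ± 0.22 on the log2 scale (adjusted p = 0.00333 by edgeR), a call lost with library size alone. Rassf5 and Dyrk3 were not called, and Fcmr had 53 counts with IL-33 and 0 with PBS, against 19 and 36 for Pigr. Of the 5 tested, 2 rose and 1 fell, 60.0% called against 25.2% of all genes, and the median log2 change of the list was 0.62.

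Each gene counted once, the 11 lists without the 6 chosen genes had 110 tested members, of which 12 rose and 27 fell, 35.5% in all against 25.2% of all genes. With the 6 included, 14 rose and 28 fell, the median log2 change was -0.38, and library size alone as the scaling gave 13 and 12, while it moved the median log2 change of all genes by 0.13.

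The genes whose profile was most like that of Il10 were sought by Pearson's r of log2(CPM + 1) over the 9 libraries, among 10252 genes with a mean of at least 5 CPM. They were Gm12989 (r = 0.99), Tbc1d7 and Cops6 (each 0.98), Gm5560, Slc25a5 and Gm5529 (each 0.98), the first of them a predicted gene model. Tbc1d7, a subunit of the TSC complex that restrains mTOR, averaged 5.14 CPM with PBS and 15.1 CPM with IL-33. After the group means were taken off, the nearest were Stau1 and 1810032O08Rik (each 0.93), Tbc1d7, Gm12989 and Kmt5c (each 0.91) and Bcdin3d (0.90), so Tbc1d7 and Gm12989 were in both sets. As Il10 hardly varied among the PBS libraries, these values rest chiefly on the 5 IL-33 libraries. They are also the highest among 10252 genes. Bhlhe40 was most like Tspan13 (0.98), Arg1 and Ndfip1 (each 0.97), and Il10ra most like Ptgir (0.97) and Zfp36l1 (0.96). Prdm1 was most like Golga1 (0.90), Maf most like Gm7289 (0.97) and Nfil3 most like Tbcd (0.90). These correlations are over the same libraries as the difference between the groups and describe likeness only.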

How the data were processed

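Messenger RNA was measured in 9 libraries of sorted pancreatic ILC2s (4 PBS, 5 IL-33). The input was 5 to 15 ng of RNA for a low-input kit, sequenced as paired reads of 150 nt, per the labels' protocols. The authors deposited whole-number counts per Ensembl gene, which were used, and a normalized table, in which each column is its counts over 1 constant and which was not used. The build was GRCm38.p6 and the tools were STAR 2.7.7a, Salmon 1.6.0, Trimmomatic 0.39, FastQC 0.11.9, DESeq2 and Picard, per the submitters' processing notes. What each tool did, the annotation and whether counts are rounded estimates: not given in the sources used here.

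Symbols matched 20571 of 20732 genes (99.2%). Coordinates and exon lengths came from GENCODE M21. Counts were tested over all 9 libraries with edgeR 4.0.16 in R 4.3.3 (TMM; genes kept by filterByExpr at a minimum of 10; two-sided quasi-likelihood test, robust), and p-values were adjusted by Benjamini-Hochberg over the 14405 genes that passed, with a threshold of 0.05. Log2 changes are IL-33 over PBS. The biological coefficient of variation was 0.56. Floors and intervals cover counting error alone, as PCR copies cannot be told from molecules. The step was tested on simulated data, where it missed most of the smaller changes put in. A gene not called may therefore still differ between the groups.

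The 6 genes, the 11 pathway lists, the 14 cell type lists and the tests were chosen with earlier results of these data known. Named are all 6 genes, in each list up to 4 called genes with the smallest adjusted p and up to 3 abundant genes not called, untested genes with any count, the 6 genes most like Il10 and up to 3 most like each other member, and the 2 most abundant cell type markers. Other genes named were chosen after their values were seen. Alternatives were other scalings and filters, a replicate block, DESeq2 1.42.0, limma 3.58.1 voom, removal of acinar genes, a threshold of 0.01, a pseudocount of 0.5 in place of 1 and leaving out each library. Cell type sums without Ccr2, or without Ighm and Cd79b, were added after seeing the data. No library was a copy of another in its group (16 pairs, with a chi-square of at least 52.6 times its degrees of freedom). Some genes that the rule names are not reported here.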

Additional observations from a re-analysis of the deposited data

Results flagged for a closer look

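In 118 groups of libraries checked (59 genes in each group), 8 held a highest or lowest library far from the rest of its group by Dixon's criterion, which chance meets in about 1 of 20 groups. Il10 in PBS replicate 2 was at 0.0603 CPM, which is 1 count, with the other PBS libraries at 0. Prdm1 in IL-33 replicate 5 was at 1.15 CPM, against 4.98 to 6.43 CPM in the other IL-33 libraries. Maf in IL-33 replicate 2 was at 95.4 CPM, against 117 to 125 CPM. Rora in that same library was at 361 CPM, against 619 to 689 CPM. Gata3 in IL-33 replicate 3 was at 6803 CPM, against 2988 to 3863 CPM, and Per3 there was at 15.0 CPM, against 4.48 to 7.41 CPM. Il4 in PBS replicate 2 was at 20.6 CPM, against 12.4 to 12.9 CPM. Tef in PBS replicate 4 was at 31.6 CPM, against 17.3 to 18.4 CPM.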

How the results depend on the processing

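The number of genes called, 3633, was 1976 with library size alone, 1786 at a threshold of 0.01 and 2676 to 3695 when each library was left out in turn. The number of list genes called, 42, was 25 with library size alone and 35 to 47 without 1 library. Il1rl1, Il9r, Myc, Arntl, Zfp36 and Gata3, not called in the main fit, each gained a call under some alternative. The fitted log2 change of Il10 was 8.55, and 7.32 with limma voom. Since PBS held 1 count, this value depends on the prior count and is no bound. Without 1 library it was 8.19 to 10.27, the highest without PBS replicate 2, which held the only PBS count. Il10 gave no value under the stricter filter (5 CPM or more in 4 or more libraries). The other log2 changes without 1 library were -0.50 to -0.05 for Prdm1, 0.15 to 0.43 for Maf, 0.46 to 0.82 for Nfil3, 0.67 to 0.88 for Bhlhe40 and -1.10 to -0.86 for Il10ra. The cause of these shifts was not tested.

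The replicate numbers share only a number: deviations of libraries with the same number correlated at -0.04, -0.12, -0.07 and 0.07. A replicate block left 1457 genes, 25 list genes and 20 of 29 named list genes called, and the log2 change of Prdm1 was 0.013 in place of -0.30. Bhlhe40, Il10ra, Il10rb, Ctla4, Havcr2, Hlf, Il4, Etv3, Per1 and Prdm9 were not called with the block. Of the genes most like Il10, 4 of 6 were the same with a pseudocount of 0.5. The depth leaves Il10 in PBS and the untested genes unmeasured below the floor of 3 counts.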
